A study of Mus musculus with 6 samples.

Results

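Neural progenitors of the embryonic brain carry a small set of transcription factors whose levels track the step from dividing cell to newborn neuron, and 10 of these genes were followed here in whole brains with and without BAHD1, a scaffold protein of repressive chromatin complexes. They were picked by name from the count table, which held 53801 genes, and each name matched 1 gene. The genes were Pax6, Sox2, Hes1, Hes5, Dll1, Neurog1, Neurog2, Insm1, Eomes and Neurod1. All 10 had enough reads to be tested.

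Polyadenylated RNA was sequenced from whole brains of mouse embryos at stage E16.5 on the C57BL/6 strain. The Bahd1-KO group held 3 embryos of genotype Bahd1-/-, a knockout of the whole body, and the Bahd1-WT group held 3 embryos of genotype Bahd1+/+. Embryos of both genotypes came from matings of Bahd1+/- mice, and the labels name no further agent. Values are listed below by replicate number, and p-values measure the spread between these embryos.

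In the cortex, radial glia that express Pax6 and Sox2 line the ventricle and divide to renew themselves or to produce neurons. Notch signalling keeps them in that state: a neighbouring cell presents the ligand Dll1, the receptor is cut, its inner part joins the DNA-binding protein RBPJ, and the repressors Hes1 and Hes5 are switched on. Hes proteins hold down proneural factors such as Neurog1 and Neurog2. Cells that escape this brake raise Neurog2 and Dll1, pass through an intermediate progenitor stage marked by Insm1 and Eomes, and then express Neurod1 as they become neurons.

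The promoter windows of Hes5 and Eomes are shown because Hes5 is the direct Notch target among the genes with a window at hand and Eomes carried the letters that Hes proteins bind. Each window is the 250 bases before the RefSeq start (GRCm38.p6), written 5′ to 3′ on the gene's strand, in lower case. Capitals mark the RBPJ core (TGGGAA, or TTCCCA on the other strand) and the N-box (CACNAG, or CTNGTG on the other strand).
Hes5, chr4:154960673-154960922, forward strand: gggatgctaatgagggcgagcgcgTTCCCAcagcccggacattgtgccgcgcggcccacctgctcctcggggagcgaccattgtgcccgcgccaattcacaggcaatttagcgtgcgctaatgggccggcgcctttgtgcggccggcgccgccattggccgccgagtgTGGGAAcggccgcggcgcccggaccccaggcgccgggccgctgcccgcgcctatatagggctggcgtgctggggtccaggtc
Eomes, chr9:118477939-118478188, forward strand: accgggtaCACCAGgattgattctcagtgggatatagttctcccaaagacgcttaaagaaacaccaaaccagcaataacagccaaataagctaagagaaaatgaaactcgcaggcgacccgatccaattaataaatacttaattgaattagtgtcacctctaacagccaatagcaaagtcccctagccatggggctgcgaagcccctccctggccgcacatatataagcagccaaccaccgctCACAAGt

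The Hes5 window held the RBPJ core at 2 places, which began 226 and 82 bases before the start, on opposite strands. Of the 10 windows that RefSeq gave for 8 of the genes, this was the single one with an RBPJ core, which 21.6% of all 32851 promoter windows of that length held. The N-box was found in the Eomes window at 242 and 7 bases before the start and in 1 of the Pax6 windows, against 36.7% of all windows. The E-box, spelled CANNTG, the letters that proneural factors bind, lay in 5 of the 10 windows, against 66.2% of all. TATAAA lay in 0 of the 10 windows, against 12.4% of all. None of the printed matches overlapped another, and the spellings of the motifs do not contain each other. Such matches describe letters and not sites in use. Hes1 and Insm1 had no entry.

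Libraries held 61724000 to 91782802 counts. Nuclear protein-coding genes took 92.3 to 95.6% of them in 5 embryos and 49.4% in Bahd1-KO replicate 3, so that CPM, counts per 1000000 of an embryo's total, are lowered in that embryo for genes in general. Its labelled tissue also stood apart. The summed level of 8 neuron markers was 1595 CPM there and 8698 to 10239 CPM in the other 5 embryos, and that of 7 forebrain markers was 67.4 CPM against 1193 to 1760 CPM. Sftpc, which encodes a surfactant protein of the lung, was at 566 CPM in this embryo. It was at 2.94 CPM in Bahd1-KO replicate 2 and at 0 to 0.121 CPM in the rest. For this reason genotype differences are given with and without Bahd1-KO replicate 3. Reads of Bahd1 itself numbered 2, 10 and 6 in the knockout group, against 1971, 3102 and 3470 in the wild-type group.

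The comparison of genotypes asked whether the loss of BAHD1 changed these genes before birth. None of the 10 genes passed the adjusted threshold of 0.05, with adjusted p-values of 0.696 to 0.970 in edgeR's quasi-likelihood test, and 0 passed an unadjusted p of 0.05. Among all 24739 genes tested, 0.00404% passed the adjusted threshold and 4.67% the unadjusted one, 4.51% being higher and 0.166% lower in Bahd1-KO. The single gene past the adjusted threshold was Bahd1 itself, at a log2 fold change of -8.40 (adjusted p 0.0462, edgeR). The deleted gene thus passed only narrowly, so a lack of calls in this fit says little about smaller changes. DESeq2 called 0 of the 10 as well, at an unadjusted p also, with adjusted p-values of 0.769 to 0.984, and 0.0323% of all genes. The narrow pass of Bahd1 was not shared by DESeq2, which gave it an adjusted p of 1.53e-48. The values of the genotypes overlapped for all 10 genes, while 6.06% of all genes did not overlap (3.97% higher and 2.09% lower in Bahd1-KO). In the fit, 9 of the 10 genes had a log2 fold change below 0, and 46.2% of all genes did. The median over the 10 was -0.44, against 0.06 over all genes. That median rested on Bahd1-KO replicate 3, and without it the median was 0.08, against -0.01 over all genes. In that fit 2 of the 10 genes were below 0, and 50.8% of all genes.

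**Figure D1:**
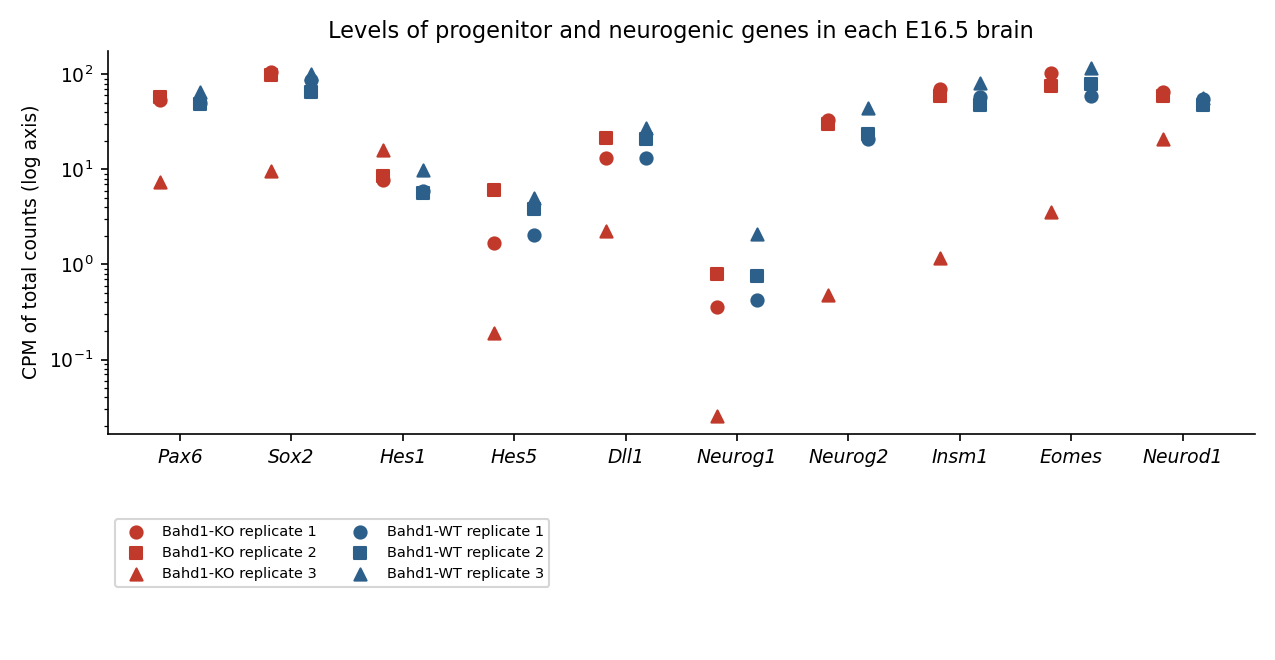
Level of each of the 10 genes in each embryo, in CPM of total counts on a log axis. Red symbols are Bahd1-KO and blue symbols Bahd1-WT embryos, with circles, squares and triangles for replicates 1, 2 and 3. The red triangle, Bahd1-KO replicate 3, lies below the other 5 embryos for 9 genes and above them for Hes1.

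Genes of the self-renewing progenitor come first. Pax6 (ENSMUSG00000027168, chromosome 2, 105668900 to 105697364, forward strand), which encodes a paired-box factor of radial glia, was at 54.2, 57.4 and 7.37 CPM in Bahd1-KO and at 50.3, 48.4 and 65.8 CPM in Bahd1-WT. Replicates 1 and 2 of Bahd1-KO lay inside the Bahd1-WT range, and the remaining one lay below all others. The means were 39.7 ± 28.0 and 54.8 ± 9.56 CPM (SD, n = 3 each), with a log2 fold change of -0.42 (SE 0.55, adjusted p 0.795, edgeR). Without Bahd1-KO replicate 3 it was 0.01, with a 95% interval of -0.48 to 0.49.

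Sox2 (ENSMUSG00000074637, chromosome 3, 34650405 to 34652461, forward strand) encodes a factor that maintains neural stem cells. Its levels were 106, 99.2 and 9.56 CPM in Bahd1-KO and 87.1, 65.6 and 102 CPM in Bahd1-WT. Apart from Bahd1-KO replicate 3, the embryos spanned 1.62-fold from lowest to highest. EdgeR gave a log2 fold change of -0.21 (SE 0.64, adjusted p 0.912). It turned to 0.25 without that embryo, with a 95% interval of -0.27 to 0.78.

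The Notch targets differed from each other. Hes1 (ENSMUSG00000022528, chromosome 16, 30064384 to 30067796, forward strand) was at 7.74, 8.55 and 16.2 CPM in Bahd1-KO and at 5.91, 5.64 and 9.97 CPM in Bahd1-WT. It was the only one of the 10 with its highest level in Bahd1-KO replicate 3. The means were 10.8 ± 4.65 and 7.17 ± 2.43 CPM (SD, n = 3 each), with a log2 fold change of 0.96 (SE 0.54, adjusted p 0.696, edgeR), or 0.17 without that embryo (95% interval -0.54 to 0.88).

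Hes5 (ENSMUSG00000048001, chromosome 4, 154960923 to 154962371, forward strand), whose promoter window is printed above, was at 1.70, 6.11 and 0.190 CPM in Bahd1-KO and at 2.06, 3.84 and 5.04 CPM in Bahd1-WT. In either genotype replicate 1 was below replicate 2. These levels rested on 15 to 467 counts. By edgeR, its log2 fold change came to -0.44 (SE 0.92, adjusted p 0.875) and 0.09 without Bahd1-KO replicate 3, with a wide 95% interval of -1.18 to 1.37.

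The ligand Dll1 (ENSMUSG00000014773, chromosome 17, 15367354 to 15376872, reverse strand) followed Hes5 in part. It was at 13.1, 21.1 and 2.24 CPM in Bahd1-KO and at 13.2, 20.9 and 27.2 CPM in Bahd1-WT. Replicates 1 and 2 of Bahd1-KO lay close to replicates 1 and 2 of Bahd1-WT, and the extremes were Bahd1-KO replicate 3 and Bahd1-WT replicate 3. EdgeR gave a log2 fold change of -0.70 (SE 0.61, adjusted p 0.710) and -0.27 without Bahd1-KO replicate 3 (95% interval -1.07 to 0.53).

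Proneural factors start the neuronal programme. Neurog2 (ENSMUSG00000027967, chromosome 3, 127633135 to 127635631, forward strand), the main proneural gene of the dorsal forebrain, was at 33.1, 30.4 and 0.481 CPM in Bahd1-KO and at 21.1, 23.8 and 44.2 CPM in Bahd1-WT. In counts, Bahd1-KO replicate 3 held 38 and the others 1936 to 4036. By edgeR, its log2 fold change came to -0.47 (SE 1.03, adjusted p 0.883), or 0.09 without that embryo (95% interval -0.66 to 0.83).

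Neurog1 (ENSMUSG00000048904, chromosome 13, 56250478 to 56252163, reverse strand), its relative, was the least abundant of the 10. It was at 0.356, 0.798 and 0.0253 CPM in Bahd1-KO and at 0.425, 0.760 and 2.11 CPM in Bahd1-WT, from 22, 61 and 2 counts and from 39, 62 and 193 counts. Bahd1-WT replicate 3 was the highest and replicate 1 of each genotype was low. EdgeR gave a log2 fold change of -1.45 (SE 0.99, adjusted p 0.696), and it stayed below 0 without Bahd1-KO replicate 3, at -0.92 (95% interval -2.48 to 0.64). Without Bahd1-WT replicate 3 it was -0.59, so that the size also depended on a wild-type embryo, by less than the SE.

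Genes of intermediate progenitors were next. Insm1 (ENSMUSG00000068154, chromosome 2, 146221921 to 146225020, forward strand), a zinc-finger factor of basal progenitors, was at 70.7, 59.0 and 1.18 CPM in Bahd1-KO and at 57.2, 47.5 and 81.9 CPM in Bahd1-WT. Eomes (ENSMUSG00000032446, chromosome 9, 118478212 to 118486132, forward strand), also known as Tbr2, was at 105, 75.8 and 3.57 CPM in Bahd1-KO and at 59.6, 79.3 and 116 CPM in Bahd1-WT. Bahd1-KO replicates 1 and 2 lay inside the Bahd1-WT range for either gene. Their log2 fold changes were -0.50 (SE 0.99, adjusted p 0.867, edgeR) for Insm1 and -0.45 (SE 0.85, adjusted p 0.862) for Eomes. Without Bahd1-KO replicate 3 they were 0.04 (95% interval -0.55 to 0.64) and 0.07 (95% interval -0.60 to 0.75).

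Neurod1 (ENSMUSG00000034701, chromosome 2, 79452521 to 79456751, reverse strand), a factor of differentiating neurons, was at 64.9, 59.1 and 20.6 CPM in Bahd1-KO and at 55.6, 47.6 and 56.7 CPM in Bahd1-WT. It varied least among the Bahd1-WT embryos, with a coefficient of variation of 9.33%, against 17.4 to 81.3% for the other 9 genes. By edgeR, its log2 fold change came to -0.04 (SE 0.31, adjusted p 0.970) and turned positive with upper-quartile factors (0.06). Without Bahd1-KO replicate 3 both remaining Bahd1-KO embryos were above all Bahd1-WT embryos, by a log2 fold change of 0.19 (95% interval -0.26 to 0.65, adjusted p 0.981). In that comparison 11.3% of all genes did not overlap, 7.7% being higher and 3.59% lower, so 1 such gene in 10 is near the background.

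**Figure D2:**
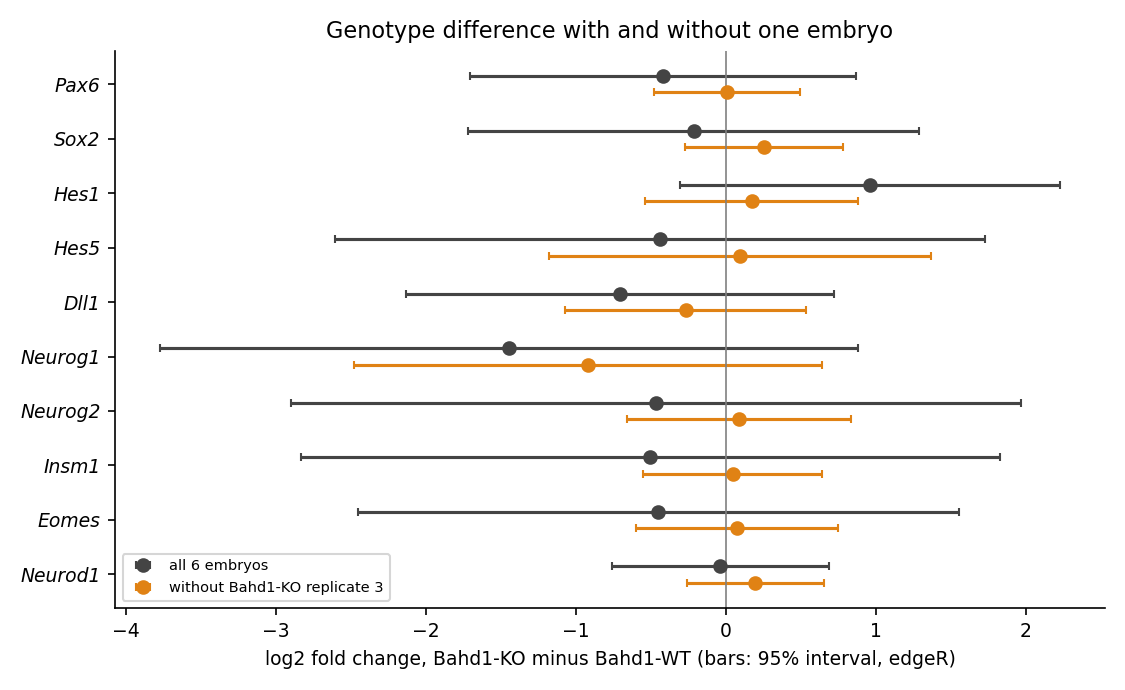
Log2 fold change of Bahd1-KO against Bahd1-WT for each gene, as points with 95% intervals from edgeR, for all 6 embryos (grey) and without Bahd1-KO replicate 3 (orange). Each interval includes 0. The points of 7 genes cross from below 0 to above it when the embryo is left out, while Hes1 stays above and Neurog1 and Dll1 stay below.

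Intervals were narrower without Bahd1-KO replicate 3 for all 10 genes. For Pax6, Sox2, Eomes, Neurog2, Neurod1 and Insm1 they then lay within -0.66 and 0.83 on the log2 scale, whereas those of Hes5, Neurog1 and Dll1 still reached beyond 1 in at least 1 direction. Adjusted p-values in the 5 embryos were 0.981 to 0.996 in edgeR, where 0.0171% of all genes passed the threshold. At an unadjusted p under 0.05 there were 0 of the 10, against 1.48% of all genes (1.09% higher and 0.386% lower), and DESeq2 also called 0.

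The departure of Bahd1-KO replicate 3 was examined on its own, as a description of 1 library. Its CPM were lower than in all other embryos for 9 of the 10 genes, against 52.7% of all genes tested, and higher for Hes1, against 25.9%. The total of that embryo holds much RNA that is not from nuclear protein-coding genes, so levels were also taken as CPM of nuclear protein-coding counts only. On that scale 9 genes were still below and Hes1 above, against 28.5% and 44.9% of all genes. Relative to the mean of the other 5 on the latter scale, the embryo held 3.00% of Neurog2, 3.54% of Insm1, 7.80% of Eomes, 9.66% of Hes5, 19.7% of Sox2, 22.4% of Dll1, 25.4% of Pax6 and 68.9% of Neurod1. Neurog1 stood at 5.44%, from 2 counts: in CPM it was 35.2-fold lower, with an exact Poisson interval of 9.73 to 290-fold that covers counting error only. Hes1 stood at 406%.

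Insm1 and Neurog2 were among the genes that lay farthest below the other embryos. On the log2 scale with TMM factors (trimmed mean of M-values), Insm1 differed from the mean of the other 5 by -4.71 and Neurog2 by -4.53, and 0.0687% and 0.0728% of all genes lay as low or lower. Eomes differed by -3.79. Neurod1 differed by -0.78, a value that 18.4% of all genes reached or passed. The median of the 10 genes was -2.22, against -0.01 for all genes tested.

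Other markers moved in the same embryo. They are given in CPM of total counts, on which 52.7% of all genes lay below and 25.9% above all other embryos. In CPM of protein-coding counts these shares were 28.5% and 44.9%, so the numbers of markers below or above depend on the scale. Marker lists were not counted on that second scale. The summed level of 7 radial glia markers was 860 CPM there against 2086 to 2495 CPM, but the markers did not move together. Of the 7, 4 were below all other embryos (Fabp7, Slc1a3, Nes and Ptprz1), 2 were above (Hopx and Aldoc) and Vim lay within the range, with a median log2 difference of -0.05. Of the neuron markers 7 of 8 were below and 1 above, and of the forebrain markers 7 of 7 were below. The 9 markers of midbrain, hindbrain and cerebellum summed to 30.2 CPM against 3.65 to 57.9 CPM, but did not move together. Hoxa2, Hoxb2, Hoxb3 and Egr2 (4 of 9) were above all other embryos, with Hoxb2 at 5.24 against 0.0245 to 0.667 CPM. En1 and Barhl1 (2 of 9) were below, with En1 at 0.785 against 1.23 to 14.8 CPM. Of 8 genes of dividing cells, 4 were above and 2 below all other embryos, with a sum of 930 CPM against 523 to 730 CPM. Skeletal muscle genes summed to 102 CPM against 6.66 to 17.9 CPM, with 9 of 9 higher, and meninges and connective tissue genes to 1409 CPM against 311 to 459 CPM, with 5 of 7 higher. Lung genes summed to 976 CPM against 0.308 to 12.7 CPM, with 5 of 6 higher. The 12.7 CPM was that of Bahd1-KO replicate 2, and the rest were at 0.308 to 0.548 CPM. Scgb1a1 was at 6.68 CPM in Bahd1-KO replicate 2 and at 4.46 CPM in Bahd1-KO replicate 3. Bahd1-KO replicate 2 was kept in the comparisons without Bahd1-KO replicate 3. In Bahd1-KO replicate 3, 8 genes of mature glia and neurons summed to 1082 CPM against 135 to 268 CPM, with 7 of 8 higher. Blood genes lay within the range of the rest, at 287 CPM against 139 to 654 CPM. Eye genes (0.469 CPM against 0.875 to 2.05 CPM, Crygc and Cryba1 at 0) were near 0 throughout. So were pituitary and other endocrine genes (0.317 CPM against 1.15 to 2.05 CPM, Gh, Pitx1 and Ins1 at 0). Olfactory epithelium genes summed to 95.6 CPM against 297 to 443 CPM but did not move together. Gnal, Adcy3 and Ebf1 (3 of 5) were below all other embryos. Omp (0.228 against 0.130 to 0.186 CPM) and Cnga2 (0.697 against 0.196 to 0.356 CPM) were above. The part of these markers in the levels of the 10 genes was not tested. Whether all RNA of this library came from E16.5 brain was not tested either. In whole brain, fewer cells of a type and less RNA per cell cannot be told apart.

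**Figure D3:**
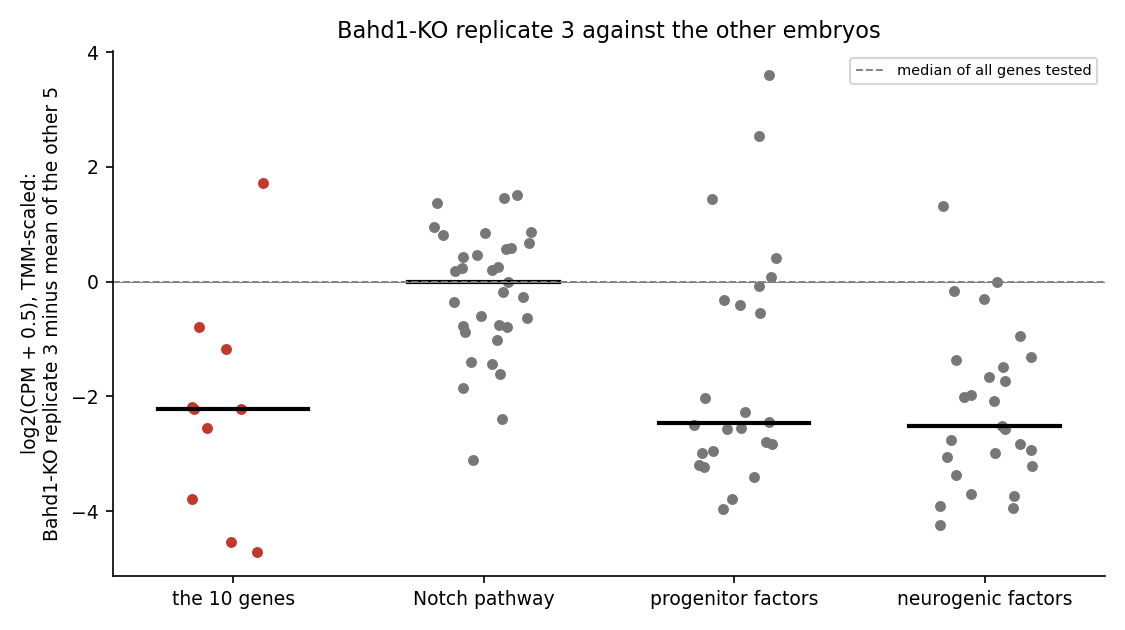
Difference between Bahd1-KO replicate 3 and the mean of the other 5 embryos, on the log2(CPM + 0.5) scale with TMM factors, with 1 point per gene. Black bars are medians (-2.22 for the 10 genes, 0.00 for Notch pathway genes, -2.47 for progenitor factors and -2.52 for neurogenic factors), and the dashed line is the median of all genes tested.

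Further genes of the same programme were read from 3 lists. The Notch list held 33 genes for ligands, receptors, their cleavage and modification, and targets. Of these, 0 passed the adjusted threshold in either direction. A log2 fold change above 0 was found for 14 and below 0 for 19, against 46.2% of all genes below. The median was -0.17. Without Bahd1-KO replicate 3 there were 9 above and 24 below, with a median of -0.23, against -0.01 and 50.8% below over all genes. Dner, a transmembrane protein with Delta-like repeats, had the highest level per length and was at 220, 292 and 31.3 CPM in Bahd1-KO and at 287, 251 and 265 CPM in Bahd1-WT. Mib2, a ubiquitin ligase that acts on Notch ligands, had the largest log2 fold change (-0.99, adjusted p 0.696, edgeR), from 9.56, 36.8 and 5.24 CPM against 17.2, 47.3 and 43.1 CPM. Rfng, a glycosyltransferase that modifies the receptor, was at -0.96 and Numbl, a relative of the Notch inhibitor Numb, at -0.86. The values were -0.64 for Mib2, -0.60 for Rfng and -0.56 for Numbl without Bahd1-KO replicate 3. Those genes were low in replicate 1 of both genotypes as well as in Bahd1-KO replicate 3.

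Notch pathway genes lay near the background in Bahd1-KO replicate 3. In CPM of protein-coding counts, 8 of the 33 genes (24.2%) were below and 16 (48.5%) above all other embryos, against 28.5% and 44.9% of all genes. On this scale the ligand Dll3 was at 0.282 there against 5.24 to 7.97 in the other embryos. Notch1, a receptor of radial glia, lay within their range, at 37.3 against 30.7 to 84.8. Numb was above it, at 66.2 against 17.96 to 22.04, and so was Heyl, a target found in vessel walls too, at 40.6 against 8.20 to 13.9.

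Transcription factors of progenitors other than the 10 formed a list of 24. Of these, 0 were called, and 4 had a log2 fold change above 0 and 20 below, against 46.2% of all genes below. The median was -0.38, or -0.01 without Bahd1-KO replicate 3. In CPM of protein-coding counts, 16 of the 24 lay below all other embryos in Bahd1-KO replicate 3 and 4 above. The shares of all genes were 28.5% and 44.9%. Id4, an inhibitor of bHLH factors, had the highest level per length, at 491, 465 and 54.0 CPM in Bahd1-KO and at 517, 265 and 399 CPM in Bahd1-WT. Emx1, a homeobox gene of the dorsal forebrain, was at -1.19 (adjusted p 0.696, edgeR), from 2.25, 6.49 and 0.291 CPM against 2.54, 8.75 and 9.62 CPM, and at -0.68 without Bahd1-KO replicate 3. Hopx at 2.28 and Hmga2 at 1.51 (adjusted p 0.696 each) were the largest in the other direction. Both rested on 1 library. Hopx was at 64.3 CPM in Bahd1-KO replicate 3 and at 6.12 to 9.28 CPM in the rest, and without that embryo the values fell to -0.06 and 0.03.

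Neurogenic factors other than the 10, a list of 27 with 26 tested, gave 0 calls. Of the log2 fold changes 1 was above 0 and 25 below, against 46.2% of all genes below. The median was -0.53, or -0.11 without Bahd1-KO replicate 3. Neurog3 fell under the count minimum. Sox4, a factor of newborn neurons, had the highest level per length, at 1596, 1208 and 134 CPM in Bahd1-KO and at 1275, 1045 and 1253 CPM in Bahd1-WT. Mxd3 (-0.99), Nhlh1 (-0.86) and Scrt2 (-0.82) had the largest log2 fold changes, with adjusted p-values of 0.696, 0.821 and 0.736 in edgeR. They were -0.76, -0.28 and -0.30 without Bahd1-KO replicate 3. Btg2, a brake on division of neurogenic progenitors, was the single gene above 0 (0.54, adjusted p 0.708, edgeR). It turned to -0.06 without Bahd1-KO replicate 3, where 9 of the 26 genes were above 0. In that fit 50.8% of all genes were below 0. Btg2 was named after its values were seen. In CPM of protein-coding counts, 21 of the 27 lay below all other embryos in Bahd1-KO replicate 3 and 1 above. The shares of all genes were 28.5% and 44.9%. Across the 3 lists 0 of 83 genes tested had an unadjusted p under 0.05 in edgeR, and 0 in DESeq2, with and without that embryo.

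Ratios within an embryo do not depend on how libraries are scaled, and 4 pairs that mark successive steps were compared, with 0.5 added to each count. Neurog2 over Hes1, a proneural gene over the repressor that opposes it, was 4.27, 3.55 and 0.0301 in the knockout embryos and 3.57, 4.22 and 4.43 in the wild-type embryos. The 5 embryos apart from Bahd1-KO replicate 3 thus lay close together in this ratio, although Hes1 varied 1.77-fold between them in CPM. Dll1 over Hes5 was 7.64, 3.46 and 11.5 in the knockout embryos and 6.40, 5.44 and 5.40 in the wild-type embryos, so that both remaining Bahd1-KO embryos lay outside the Bahd1-WT range, on opposite sides.

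Eomes over Pax6 was 1.93, 1.32 and 0.485 in the knockout embryos and 1.18, 1.64 and 1.77 in the wild-type embryos. Neurod1 over Eomes was 0.620, 0.780 and 5.77 in the knockout embryos and 0.934, 0.601 and 0.488 in the wild-type embryos. Only Bahd1-KO replicate 3 had more Neurod1 than Eomes counts. On the log2 scale the genotypes differed by -0.49 for Eomes over Pax6, 1.12 for Neurod1 over Eomes, 0.23 for Dll1 over Hes5 and -2.40 for Neurog2 over Hes1. Exact two-sided permutation tests over the 20 assignments gave p-values of 0.7, 0.4, 0.7 and 0.4, and 0.7 for each after adjustment over the 4 ratios, where 0.1 is the smallest p that 3 against 3 allows. Without Bahd1-KO replicate 3 the differences were 0.08, 0.10, -0.16 and -0.06, with p-values of 0.8, 0.8, 0.9 and 0.7 (exact, smallest possible 0.1).

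**Figure D4:**
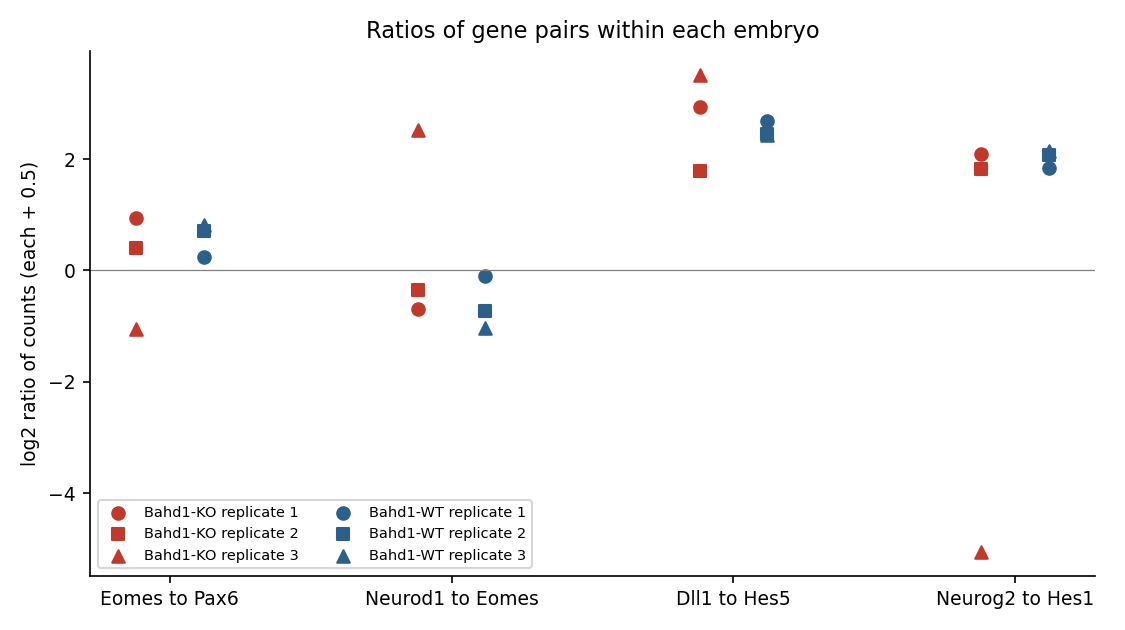
Log2 ratio of counts for 4 gene pairs within each embryo, with Bahd1-KO in red and Bahd1-WT in blue and circles, squares and triangles for replicates 1, 2 and 3. Neurog2 over Hes1 lies between 1.83 and 2.15 in 5 embryos and at -5.05 in Bahd1-KO replicate 3.

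The remaining 5 embryos differed from each other across several genes at once. On the TMM-scaled log2 scale, 7 of the 10 genes peaked in Bahd1-WT replicate 3, and 5 were lowest in Bahd1-WT replicate 2. Against the mean of the 5, the median over the genes was 0.14 and 0.03 in replicates 1 and 2 of Bahd1-KO, and -0.33, -0.21 and 0.39 in replicates 1, 2 and 3 of Bahd1-WT. The medians of both Bahd1-KO embryos thus lay inside the Bahd1-WT range. Hes5, Dll1 and Neurog1 differed from the other members in that both replicates numbered 1 were at the bottom. Their differences from the mean of the 5 on the log2 scale were -0.79 and -0.56 for Hes5, -0.45 and -0.41 for Dll1, and -0.54 and -0.43 for Neurog1, with the Bahd1-KO embryo given first. Among these 5 embryos Mib2, Rfng, Numbl and Notch1 of the Notch list were also lowest in both, so the pattern was not particular to these genes. The share of all genes with it was not counted.

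Regional genes differed between the same embryos. A list of 9 markers of midbrain, hindbrain and cerebellum summed to 3.65 CPM in Bahd1-KO replicate 1 and to 34.6 to 57.9 CPM in the other 4, and Atoh1, the proneural gene of cerebellar granule cells, had 0 counts in that embryo. Bahd1-WT replicate 1, which was low in Hes5, Dll1 and Neurog1 too, had 38.6 CPM for this list. The part of these regional genes in the spread of the 10 genes was not tested.

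**Figure D5:**
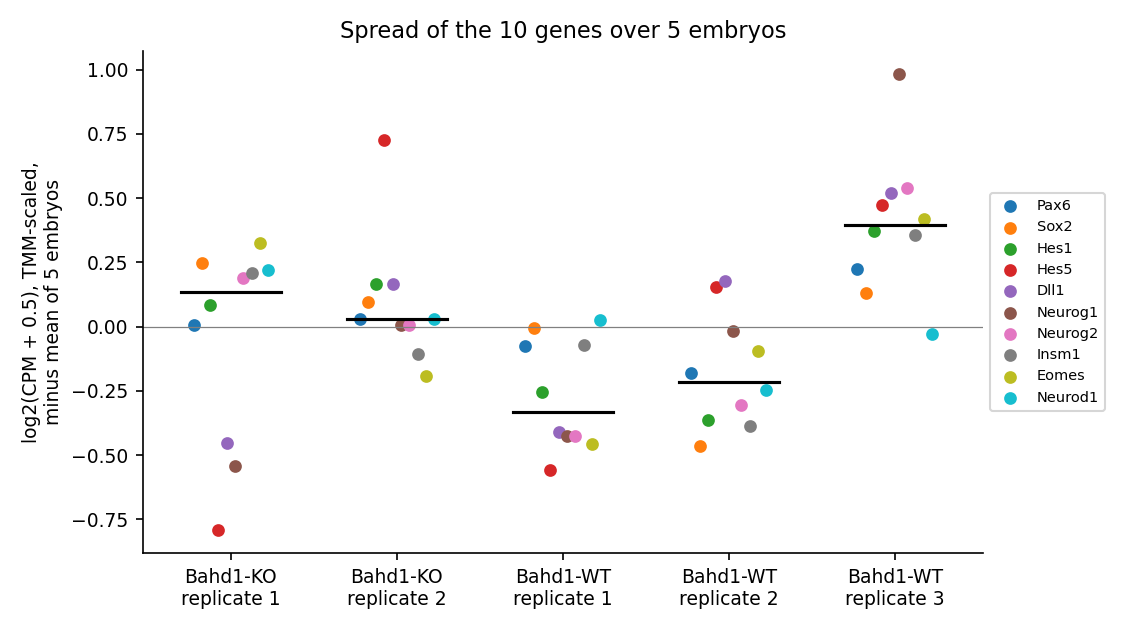
Level of each of the 10 genes in 5 embryos, as the difference from their mean on the log2(CPM + 0.5) scale with TMM factors. Black bars are medians over the genes, highest in Bahd1-WT replicate 3 (0.39) and lowest in Bahd1-WT replicate 1 (-0.33).

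Levels of different genes can be compared only per length, so CPM were divided by the kilobases of annotated exon of each gene (GENCODE M21), which range from 1.36 for Hes5 to 11.7 for Pax6. In Bahd1-WT, Sox2 was first with 41.2 ± 8.84 CPM per kb (SD, n = 3). Eomes (20.5 ± 6.92), Insm1 (20.1 ± 5.71), Neurod1 (19.5 ± 1.82) and Neurog2 (13.3 ± 5.68) followed, and each neighbour in this run overlapped the next. Dll1 (4.85 ± 1.67), Pax6 (4.69 ± 0.818), Hes1 (3.52 ± 1.19) and Hes5 (2.67 ± 1.10) formed a lower group whose neighbours also overlapped, and Neurog1 was last at 0.652 ± 0.531. Pax6 has 26 annotated transcripts that together make its exon length long, which lowers its value per kb.

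Replicates 1 and 2 of Bahd1-KO kept Sox2 first, at 48.2 to 51.5 CPM per kb, and Neurog1 last, at 0.211 to 0.473. Neurod1, Eomes and Insm1 again shared one level, and so did Pax6, Dll1, Hes1 and Hes5. In Bahd1-KO replicate 3 the order was another one. Hes1 (7.94 CPM per kb) and Neurod1 (7.57) led, Sox2 (4.65) came next, and the other 7 genes were at 0.0150 to 0.860.

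Genes outside the set with the most similar course were found by the root mean square difference of centred log2 levels from the median course of the 10. Over all 6 embryos and 10158 genes of at least 10 CPM, the nearest were Fez1 (difference 0.09), Mir9-3hg, H2afy2, Cirbp and Ptx3 (0.12 each), which were 7.55 to 9.49-fold lower in Bahd1-KO replicate 3 than in the mean of the rest. Mir9-3hg is a host transcript of miR-9. Over the 5 embryos without Bahd1-KO replicate 3, the nearest were Zfas1 (0.03), Rbm3 (0.05), Bub1b (0.06), Tacc3 (0.07) and Cenpa (0.07), of which Bub1b, Tacc3 and Cenpa act in mitosis. Those 3 mitotic genes were not lower in Bahd1-KO replicate 3, at 45.0, 38.2 and 19.0 CPM against ranges of 23.3 to 44.6, 22.7 to 37.9 and 11.6 to 22.2 CPM. Within the set, Neurog2 lay nearest to the median course of the 5 embryos (0.09) and Hes5 farthest (0.55).

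Position gave no further grouping. Pax6, Insm1 and Neurod1 lie on chromosome 2 like Bahd1, at distances of 13.2, 27.3 and 39.4 Mb from it, and none of them separated the genotypes over all embryos. Counting could touch 1 gene of the set, since 7.37% of the exon bases of Neurod1 are shared with Cerkl on the same strand. Other overlaps of exons, for Hes5, Dll1, Eomes and Neurod1, were with genes on the opposite strand, which strand-specific counting keeps apart.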

How the data were processed

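The deposited values are raw counts of reads for each Ensembl gene and embryo, technical runs combined. The authors, as their methods describe, built stranded libraries from polyadenylated RNA, sequenced them in repeated technical runs, trimmed the reads with cutadapt (1.11), aligned them to GRCm38 and counted exons with featureCounts (1.4.6-p3) in strand-specific mode. STAR and TopHat2 are both named, and which one made this table is not stated.

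A gene was tested where its counts summed to 10 or more over the embryos. The fit used edgeR (4.0.16, R 4.3.3) with TMM factors, and genotype was its only term. Two-sided quasi-likelihood tests were adjusted by Benjamini and Hochberg over all genes tested (threshold 0.05), standard errors were taken as the log2 fold change over the root of F, and intervals used the t distribution of that fit. The study used DESeq2, which was run as an alternative (1.42.0), besides voom with quality weights in limma (3.58.1). The fit was tested on simulated counts drawn from wild-type rates with a single dispersion. That simulation held no library that stood apart, so it does not cover Bahd1-KO replicate 3. Levels are CPM of total counts; log2 levels carry a pseudocount of 0.5. Same-numbered embryos were checked for pairing. Chi-square comparisons showed no pair of replicates as alike as sampling noise. Positions and exon lengths came from GENCODE M21 (GRCm38) and promoters from RefSeq.

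The 10 genes and all lists were chosen with earlier results of these data known. Named were Bahd1, the 10 genes, list genes past the adjusted threshold (none were), the gene of the highest level per length and the 3 largest absolute log2 fold changes (at least 1 CPM) of each list, and the 5 nearest courses. Dll3, Notch1, Numb, Heyl, marker genes, and the mature glia and neuron list were chosen after values were seen. Marker lists covered dividing cells, radial glia, neurons, forebrain, midbrain with hindbrain and cerebellum, eye, pituitary with endocrine cells, olfactory epithelium, skeletal muscle, meninges with connective tissue, blood and lung. Bcl11b of the forebrain list was not analysed here.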

Additional observations from a re-analysis of the deposited data

How the results depend on the processing

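None of the 10 genes and none of the 83 tested list genes passed the adjusted threshold in any of the 18 alternative fits. Scaling moved the median of all genes from 0.06 to 0.17 (upper-quartile factors) or -0.11 (total counts). Genes called over the whole table numbered 1, but 8 in DESeq2, 6 with voom weights, 0 with the replicate block (517 at an unadjusted p under 0.05), 16 with the block and 11 in DESeq2 without Bahd1-KO replicate 3, 4 with total counts without it (chosen after seeing the data), and 0 to 4 in fits leaving out 1 embryo (4 without Bahd1-KO replicate 3, 0 in the other 5 fits, with 154 to 4878 at an unadjusted p under 0.05). Where 0 genes were called, Bahd1 itself did not pass either. The cause of these differences between fits was not tested.

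Directions turned where Bahd1-KO replicate 3 was down-weighted or left out, and for Neurod1 also where the scaling alone was changed. With voom weights Sox2 was at 0.29 and Neurod1 at 0.25, and with upper-quartile factors Neurod1 was at 0.060. Without that embryo in DESeq2, the median of the 10 genes was 0.078, with Pax6 at 0.0044, Sox2 at 0.25, Hes5 at 0.080, Eomes at 0.075, Neurog2 at 0.084, Neurod1 at 0.19 and Insm1 at 0.043. With total counts these were 0.091, 0.025, 0.27, 0.10, 0.085, 0.10, 0.22 and 0.060. Leaving out each embryo in turn gave ranges of -0.77 to 0.080 for the median, -0.75 to 0.0073 for Pax6, -0.60 to 0.25 for Sox2, -1.87 to 0.092 for Hes5, -1.09 to 0.074 for Eomes, -0.96 to 0.086 for Neurog2, -0.24 to 0.19 for Neurod1, -1.06 to 0.044 for Insm1, 0.17 to 1.25 for Hes1, -2.45 to -0.59 for Neurog1 and -1.31 to -0.27 for Dll1. Ratios ranged from -0.91 to 0.083 (Eomes to Pax6), 0.10 to 1.71 (Neurod1 to Eomes), -0.16 to 0.71 (Dll1 to Hes5) and -3.63 to -0.06 (Neurog2 to Hes1).

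Deviations of same-numbered embryos correlated at 0.31, 0.38 and -0.13. Bahd1-KO replicate 2 correlated slightly more with Bahd1-WT replicate 3 (0.41), and Bahd1-KO replicate 3 correlated most with Bahd1-WT replicate 1 (0.17). Bahd1-KO replicate 1 correlated most with Bahd1-WT replicate 1, against -0.22 and -0.23 for the others. Deviations were taken from genotype means that include Bahd1-KO replicate 3, so this check cannot tell whether the numbers pair the embryos. With the replicate block the median of the 10 genes was -0.93, and ratio differences were unchanged by construction (exact sign-flip p 0.75 each). With the replicate block without Bahd1-KO replicate 3 the median was 0.24, with Pax6 at 0.13, Sox2 at 0.39, Hes5 at 0.18, Eomes at 0.33, Neurog2 at 0.46, Neurod1 at 0.22 and Insm1 at 0.26. In that fit 3 of the 10 genes and 9.3% of all genes had an unadjusted p under 0.05, and the lowest adjusted p of the 10 was 0.375. Depth limits Neurog1 and Hes5 most, at 2 to 193 and 15 to 467 counts.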
